A study of Homo sapiens with 6 samples.

Results

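The IFIT family consists of the 5 human genes IFIT1, IFIT1B, IFIT2, IFIT3 and IFIT5, taken by gene identifier from a table of 19402 genes. All 5 were found in the table, and 4 of them were counted deeply enough to be tested among 13388 genes. The material was CFPAC1, an established cell line from a human pancreatic ductal tumour, and its polyadenylated RNA was sequenced in 6 libraries whose labels name no interferon treatment. The 3 libraries labelled IRF1-KO came from pools of CFPAC1 clones infected with the lentiCRISPR v2 plasmid expressing wild-type Cas9 and a guide RNA against IRF1. The 3 WT libraries came from pools of CFPAC1 clones isolated by dilution after infection with the same plasmid, with no guide named in the labels. Both groups therefore share infection, cloning and growth in the same supplemented medium, and each library is a pool of clones and not a single clone. The comparison asked how transcripts of the IFIT genes differed between pools labelled IRF1-KO and WT pools.

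IFIT proteins are built of tetratricopeptide repeats and are among the transcripts that interferon raises most. IFIT1 binds messenger RNA whose cap lacks ribose methylation, a mark of some viral RNAs, and blocks its translation. IFIT2 and IFIT3 join IFIT1 in complexes, and IFIT3 stabilises IFIT1. IFIT5 binds RNA with a free phosphorylated end. IFIT1B is a close paralogue of IFIT1. Interferon acts on these genes through the transcription factor complex ISGF3, which binds interferon-stimulated response elements, and IRF1 is a transcription factor that can bind elements of the same kind.

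The cluster occupied 137304 bases of GRCh38 chromosome 10, from 89283694 to 89420997, and no other gene of the table lay wholly within it. All 5 members are on the plus strand, in the order IFIT2 (ENSG00000119922.10, 89283694 to 89309271), IFIT3 (ENSG00000119917.14, 89327997 to 89340971), IFIT1B (ENSG00000204010.3, 89378056 to 89385205), IFIT1 (ENSG00000185745.10, 89392546 to 89406487) and IFIT5 (ENSG00000152778.9, 89414568 to 89420997). Counts cover all exons, untranslated parts included. Of the 4074 exon bases of IFIT2, 65 also lie in exons of LIPA on the minus strand and 421 lie in exons of LIPA or AL353751.1 in GENCODE 29. No exon of the other members overlapped another gene. IFIT1 and IFIT1B shared 38 stretches of 50 bases, out of 4612 in IFIT1, so reads could be confused between these paralogues over a small part only.

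Promoter sequences are shown because response element cores lie near the starts of IFIT1, IFIT3 and IFIT5 and not of IFIT1B, while the window of IFIT2 was not analysed here. Each runs from 250 bases before to 50 bases after a RefSeq start (GRCh38.p14, plus strand), and RefSeq entries were matched for IFIT1, IFIT1B, IFIT3 and IFIT5. Capitals mark the core of the response element, spelled GAAA, any 2 bases, GAAA and searched on both strands. All matches in these members lay on the minus strand, so that they read TTTC, any 2 bases, TTTC here.
IFIT3 (chr10:89327747-89328046, the first of its starts): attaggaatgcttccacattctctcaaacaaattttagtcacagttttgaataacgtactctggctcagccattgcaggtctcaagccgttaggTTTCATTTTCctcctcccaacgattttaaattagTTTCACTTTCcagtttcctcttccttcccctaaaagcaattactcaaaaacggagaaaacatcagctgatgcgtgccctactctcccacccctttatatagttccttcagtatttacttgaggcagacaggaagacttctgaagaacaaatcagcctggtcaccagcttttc
IFIT1 (chr10:89392373-89392672): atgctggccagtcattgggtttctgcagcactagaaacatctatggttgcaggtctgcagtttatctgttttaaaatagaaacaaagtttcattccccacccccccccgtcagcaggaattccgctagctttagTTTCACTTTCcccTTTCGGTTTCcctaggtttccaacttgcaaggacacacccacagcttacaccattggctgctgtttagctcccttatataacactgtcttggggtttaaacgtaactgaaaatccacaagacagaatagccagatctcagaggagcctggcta
IFIT5 (chr10:89414318-89414617): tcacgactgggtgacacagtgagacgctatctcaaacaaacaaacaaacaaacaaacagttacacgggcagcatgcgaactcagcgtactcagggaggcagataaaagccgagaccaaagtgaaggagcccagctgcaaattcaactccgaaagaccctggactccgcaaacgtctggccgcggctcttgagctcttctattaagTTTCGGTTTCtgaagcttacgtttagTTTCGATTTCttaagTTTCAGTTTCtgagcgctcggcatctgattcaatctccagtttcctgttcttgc
IFIT1B (chr10:89377806-89378105): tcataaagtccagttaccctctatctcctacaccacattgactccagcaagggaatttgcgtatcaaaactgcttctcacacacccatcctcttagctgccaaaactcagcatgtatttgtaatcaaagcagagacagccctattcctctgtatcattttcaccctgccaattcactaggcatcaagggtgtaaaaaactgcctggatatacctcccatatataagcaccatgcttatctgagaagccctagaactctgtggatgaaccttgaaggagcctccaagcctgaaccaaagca

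IFIT1 held 2 cores, TTTCACTTTC and TTTCGGTTTC, beginning 116 and 103 bases upstream of the start. At the first start of IFIT3 the cores TTTCATTTTC and TTTCACTTTC began 156 and 122 bases upstream, and the other start held TTTCAGTTTC and TTTCACTTTC beginning 94 and 51 bases upstream. IFIT5 held 3 cores, TTTCGGTTTC, TTTCGATTTC and TTTCAGTTTC, beginning 45, 19 and 4 bases upstream. IFIT1B held none. Among 35116 RefSeq promoters of the same length, 3.57% held at least 1 core, 0.259% held at least 2 and 0.0370% held at least 3. The palindromic motif TTC, any 3 bases, GAA, the interferon-gamma activated site, was in none of these IFIT windows and in 7.66% of all promoters.

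Total counts ranged from 16413682 to 28258075 per library. IRF1 had 117, 123 and 132 CPM (reads scaled to library size with TMM factors) in IRF1-KO replicates 1 to 3, against 87.3, 91.3 and 82.6 CPM in WT replicates 1 to 3. The targeted transcript was thus higher in every library labelled IRF1-KO, with a log2 fold change of 0.51 ± 0.10 (SE) and a p of 0.135 after Benjamini-Hochberg adjustment in edgeR's quasi-likelihood fit, short of 0.05. DESeq2 gave IRF1 an adjusted p of 0.00105. Counts over all exons do not check a small Cas9 deletion, and every direction given here is that of libraries so labelled. Ductal epithelial markers were abundant, with 8 of 9 tested and summed levels of 5047 to 6957 CPM in IRF1-KO libraries and 4438 to 7580 CPM in WT libraries, while CFTR had at most 12 reads. WT replicate 3 was the lowest WT library for all 8, with CDH1 at 107 CPM, against 499 and 378 CPM in WT replicates 1 and 2. MUC1 averaged 151 ± 56.1 CPM in IRF1-KO and 353 ± 204 CPM in WT (SD, n = 3 each), with overlapping groups. Without WT replicate 3 the log2 fold changes were −0.96 for IFIT1, −1.57 for IFIT2, −2.05 for IFIT3 and −0.65 for IFIT5. Of 8 leukocyte markers, summing to 143 to 179 CPM in IRF1-KO and 170 to 213 CPM in WT, the pan-leukocyte gene PTPRC had 1 or 2 reads per library and MS4A1 none. CD68, a lysosomal gene, made up most of that sum, at 144 ± 14.6 CPM in IRF1-KO and 149 ± 30.5 CPM in WT. LYZ averaged 20.1 ± 5.96 CPM in IRF1-KO and 43.1 ± 27.7 CPM in WT without overlap (edgeR adjusted p = 0.535). The part of these markers in the IFIT differences was not tested. The labels do not say whether pools were grown on separate occasions, and p-values describe the spread among these pools, which may be technical. Fewer cells expressing a gene and less RNA per cell cannot be told apart in such libraries.

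Transcripts of IFIT1, IFIT2, IFIT3 and IFIT5 were on average 1.72-fold to 4.65-fold lower in the libraries labelled IRF1-KO than in WT libraries, and IFIT1B was hardly detected in either group. By edgeR's quasi-likelihood test none of the 4 passed 0.05 after Benjamini-Hochberg adjustment over all genes, a threshold passed by 0.112% of tested genes in the lower and 0.0149% in the higher direction. At an unadjusted p of 0.05 all 4 were lower, as were 3.75% of tested genes, while 5.39% were higher. For IFIT2, IFIT3 and IFIT5 the highest IRF1-KO library stood below the lowest WT library, as for 6.75% of tested genes, and the reverse held for 8.03%. With DESeq2, IFIT2, IFIT3 and IFIT5 passed the threshold as lower, as did 0.964% of genes, while 1.52% passed as higher. No member was called by limma-voom. The median log2 fold change was −1.54 over the 4 tested members and −0.02 over all tested genes. Each of the 4 had at least 260 reads in every library, so none was tested on the strength of a single group.

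IFIT3, the partner that stabilises IFIT1, showed the largest difference of the family. IFIT3 had 25.4, 39.8 and 27.2 CPM in IRF1-KO replicates 1 to 3, against 87.6, 171 and 172 CPM in WT replicates 1 to 3. The groups did not overlap, and the highest IRF1-KO library stood below the lowest WT library. Mean levels of IFIT3 were 30.8 ± 7.89 CPM in IRF1-KO and 144 ± 48.5 CPM in WT (SD, n = 3 each). This is a 4.65-fold lower level and a log2 fold change of −2.22 ± 0.30 (SE), with an adjusted p of 0.0663 from edgeR's quasi-likelihood test. Only 0.314% of tested genes had a log2 fold change as low. DESeq2 gave an adjusted p of 7.90e-12. Without WT replicate 1 the edgeR adjusted p for IFIT3 was 0.0253 and without WT replicate 3 it was 0.0487, both past the threshold. It lay between 0.109 and 0.385 without any other single library.

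IFIT2, which forms complexes with IFIT1 and IFIT3, followed at lower counts. Its level was 15.9, 25.1 and 16.0 CPM in IRF1-KO replicates 1 to 3, against 30.0, 85.0 and 66.1 CPM in WT replicates 1 to 3. IRF1-KO replicate 2 came close to WT replicate 1, but the groups did not overlap. The log2 fold change was −1.66 ± 0.39 (SE), or 3.17-fold lower, with an adjusted p of 0.211 in edgeR's quasi-likelihood fit and 0.000433 in DESeq2.

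IFIT1, the cap-binding member, was the most variable. It had 34.9, 81.3 and 44.4 CPM in IRF1-KO replicates 1 to 3, against 52.0, 160 and 217 CPM in WT replicates 1 to 3. Here the groups overlapped, since WT replicate 1 lay between the libraries labelled IRF1-KO. Means were 53.5 ± 24.5 CPM in IRF1-KO and 143 ± 83.7 CPM in WT (SD, n = 3 each). The log2 fold change of −1.42 ± 0.54 (SE) had an adjusted p of 0.510 with edgeR's quasi-likelihood test and 0.408 with DESeq2.

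IFIT5 had the smallest difference of the 4. It was measured at 40.6, 47.6 and 35.7 CPM in IRF1-KO replicates 1 to 3, against 54.8, 76.7 and 81.9 CPM in WT replicates 1 to 3. The groups did not overlap. A log2 fold change of −0.78 ± 0.18 (SE), 1.72-fold lower, came with an adjusted p of 0.187 in edgeR's quasi-likelihood fit and 0.00867 in DESeq2.

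IFIT1B, the member whose promoter window held no response element core, had 0 reads in all libraries except WT replicate 2, which had 1. A limit of 3 reads corresponds to 0.105 to 0.183 CPM in IRF1-KO libraries and 0.144 to 0.164 CPM in WT libraries, for counting error only. It was not detectable as different at this depth.

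**Figure D1:**
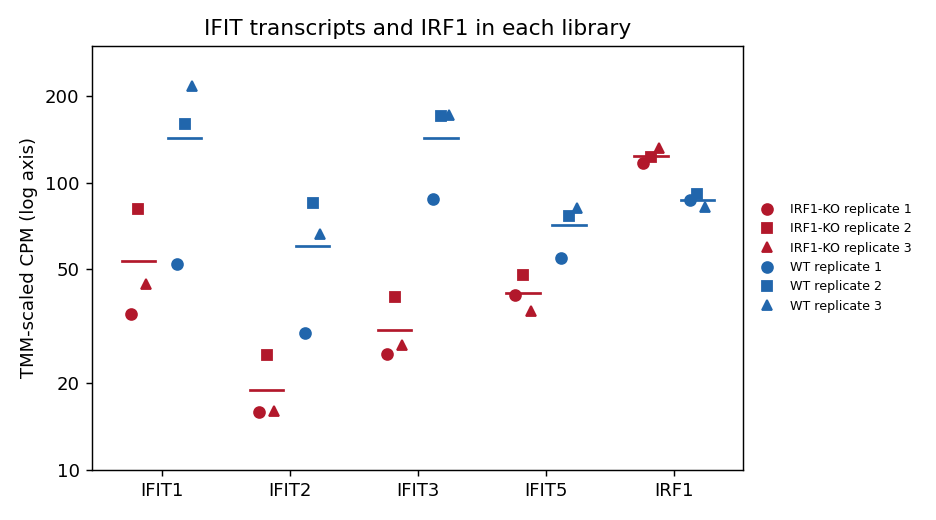
Levels of the 4 tested IFIT genes and IRF1 in TMM-scaled CPM on a log axis, with 1 point per library and a bar at the mean of each group (IRF1-KO red, WT blue). IFIT3 lies between 25.4 and 39.8 CPM in IRF1-KO libraries and between 87.6 and 172 CPM in WT libraries, whereas the IFIT1 points of the groups overlap and IRF1 is higher in all IRF1-KO libraries.

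Summed over the 5 members, the family reached 117, 194 and 123 CPM in IRF1-KO replicates 1 to 3, against 224, 493 and 537 CPM in WT replicates 1 to 3. Compared per kilobase of exon, IFIT3 averaged 12.1 ± 3.11 CPM per kilobase in IRF1-KO and 56.6 ± 19.1 in WT (SD, n = 3 each). IFIT1 came next with 11.6 ± 5.31 in IRF1-KO and 31.0 ± 18.1 in WT. IFIT5 stood at 10.3 ± 1.48 in IRF1-KO and 17.7 ± 3.58 in WT, and IFIT2 at 4.66 ± 1.30 in IRF1-KO and 14.8 ± 6.86 in WT. The order of the means was the same in both groups, IFIT3 above IFIT1, IFIT5 and IFIT2. In single libraries labelled IRF1-KO the order of IFIT3, IFIT1 and IFIT5 differed each time and their ranges overlapped, with IFIT2 lowest throughout. In WT libraries IFIT3 was always highest, although its range overlapped that of IFIT1, and the ranges of IFIT1, IFIT5 and IFIT2 overlapped as well. Lengths of the longest coding transcript in place of summed exons, a choice made after the data were examined, kept the order of the means in both groups.

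IFIT3 stood lower relative to the other members in libraries labelled IRF1-KO. Ratios of 2 members within a library do not depend on library size or scaling. Per exon length, IFIT5 stood to IFIT3 as 1.01, 0.752 and 0.829 in IRF1-KO replicates 1 to 3, against 0.394, 0.283 and 0.299 in WT replicates 1 to 3. On the log2 scale this ratio was higher by 1.41 in libraries labelled IRF1-KO. The ratio of IFIT1 to IFIT3 was 0.756, 1.12 and 0.899 in IRF1-KO, against 0.327, 0.516 and 0.692 in WT, a log2 difference of 0.90. IFIT2 to IFIT3 gave 0.389, 0.393 and 0.368 in IRF1-KO, against 0.213, 0.310 and 0.239 in WT, a log2 difference of 0.61.

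None of these ratios to IFIT3 overlapped between groups, and each had a two-sided exact permutation p of 0.1, the smallest that 3 against 3 libraries allow (0.133 after Benjamini-Hochberg adjustment over 4 ratios). All 3 ratios share IFIT3, the member with the largest difference, so they restate its fold change and are not separate results. IFIT1 to IFIT2 overlapped, with log2 ratios averaging 1.25 ± 0.28 in IRF1-KO and 0.96 ± 0.50 in WT (SD, n = 3 each), a difference of 0.29 with an exact permutation p of 0.5. As a share of all reads on the family, IFIT3 made up 21.7%, 20.5% and 22.0% in IRF1-KO replicates 1 to 3, against 39.0%, 34.7% and 32.1% in WT replicates 1 to 3. IFIT5 made up between 24.5% and 34.8% in IRF1-KO, against 15.3% to 24.4% in WT. Thus IFIT3 took a smaller part of the family's reads in every library labelled IRF1-KO, and IFIT5 a larger part in each of them than in any WT library.

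**Figure D2:**
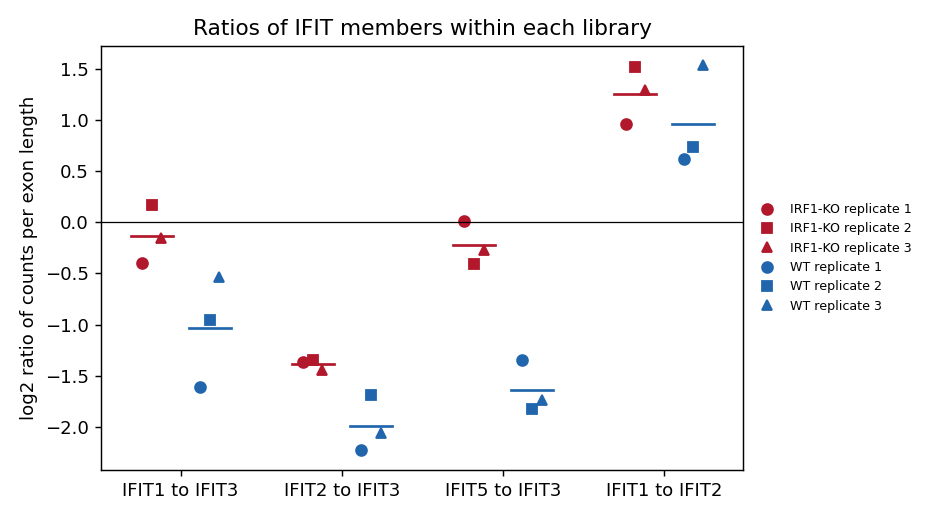
Log2 ratios of counts per exon length for 4 pairs of IFIT genes, with 1 point per library and a bar at the group mean (IRF1-KO red, WT blue). For the 3 ratios to IFIT3 all IRF1-KO points lie above all WT points, with differences of 0.90, 0.61 and 1.41, and for IFIT1 to IFIT2 the points overlap.

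Libraries of the same group differed in IFIT level, and the 4 tested members shared only part of the order of libraries. The highest WT library was replicate 2 for IFIT2 and replicate 3 for IFIT1, IFIT3 and IFIT5. The lowest IRF1-KO library was replicate 3 for IFIT5 and replicate 1 for IFIT1, IFIT2 and IFIT3. WT replicate 1 was the lowest WT library and IRF1-KO replicate 2 the highest IRF1-KO library for each of the 4, as for 27 of 35 other antiviral interferon-stimulated genes and for 14.3% of all tested genes. IFIT1 in WT replicate 1 lay 1.23 below the mean of its group on the log2 scale (−1.23), IFIT2 −0.88, IFIT3 −0.65 and IFIT5 −0.36, beside a median of −0.54 for the other antiviral genes. In IRF1-KO replicate 2 the deviations were 0.70 for IFIT1, 0.44 for IFIT2, 0.40 for IFIT3 and 0.21 for IFIT5, beside a median of 0.39. IFIT1 thus moved most between libraries of a group and IFIT5 least.

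The highest library exceeded the lowest for IFIT1 by 2.33-fold in IRF1-KO and 4.17-fold in WT, and for IFIT2 by 1.59-fold in IRF1-KO and 2.83-fold in WT. The biological coefficient of variation, edgeR's estimate of the relative spread between libraries of a group beyond counting noise, was 0.449 for IFIT1, 0.330 for IFIT2, 0.257 for IFIT3 and 0.176 for IFIT5. Its median was 0.168 over 12091 genes of at least 2 CPM on average, and 3.61% of these exceeded IFIT1. Genes of over 65% GC had median deviations of −0.19, 0.16 and 0.05 in IRF1-KO replicates 1 to 3. In WT replicates 1 to 3 these medians were −0.32, 0.14 and 0.19. All 4 members had the sign of these medians in every library except IRF1-KO replicate 3, where all 4 members were negative. The part of GC content in these deviations was not tested. IFIT transcripts are 37.4% to 44.3% GC, and the 3833 tested genes in this range had medians of −0.04 in IRF1-KO replicate 2 and −0.01 in WT replicate 1. With a correction for GC content the log2 fold changes were −1.35 for IFIT1, −1.61 for IFIT2, −2.17 for IFIT3 and −0.73 for IFIT5. Their edgeR adjusted p were then 0.650, 0.353, 0.0954 and 0.320, each larger than without the correction.

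**Figure D3:**
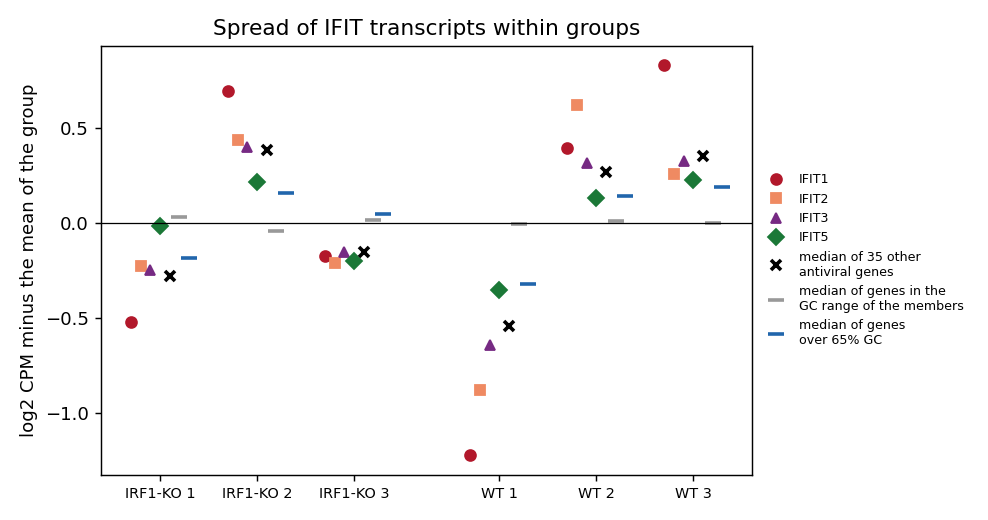
Deviation of log2 CPM from the mean of the group in each library, for the 4 tested IFIT genes and for medians of 3 gene sets (35 other antiviral genes, genes in the GC range of the members, genes over 65% GC). All 4 members are highest of their group in IRF1-KO replicate 2 and lowest of their group in WT replicate 1, where IFIT1 reaches −1.23, while genes of like GC content stay near 0.

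Genes beside the cluster had log2 fold changes from −0.92 to 1.15, of either sign. Of the 10 flanking genes, 5 on each side, 9 were tested and none passed the threshold with edgeR's quasi-likelihood test, with DESeq2 or with any library left out. FAS, SLC16A12 and HTR7 were at an unadjusted p under 0.05. LIPA, the lysosomal acid lipase gene whose span encloses IFIT2, IFIT3, IFIT1B and IFIT1 on the other strand, averaged 188 ± 28.7 CPM in IRF1-KO and 176 ± 17.9 CPM in WT (SD, n = 3 each), a log2 fold change of 0.09 ± 0.14 (SE). On the other side SLC16A12, a solute carrier gene, averaged 2.45 ± 1.25 CPM in IRF1-KO and 1.11 ± 0.133 CPM in WT with a log2 fold change of 1.15 ± 0.45, and the groups overlapped. PANK1, a pantothenate kinase gene, had a log2 fold change of −0.13 ± 0.20, and the mitotic kinesin gene KIF20B had 0.02 ± 0.13. Farther out the death receptor gene FAS had −0.39 ± 0.15, STAMBPL1 −0.08 ± 0.18, RPP30 0.06 ± 0.12 and ACTA2 −0.92 ± 0.49, and the groups overlapped for each. HTR7, a serotonin receptor gene, had 0.85 ± 0.23 with all IRF1-KO values above all WT values, a size near that of IFIT5 in the other direction. Neighbours and members were not tested against each other. CH25H, a sterol hydroxylase gene with few reads, was not tested.

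**Figure D4:**
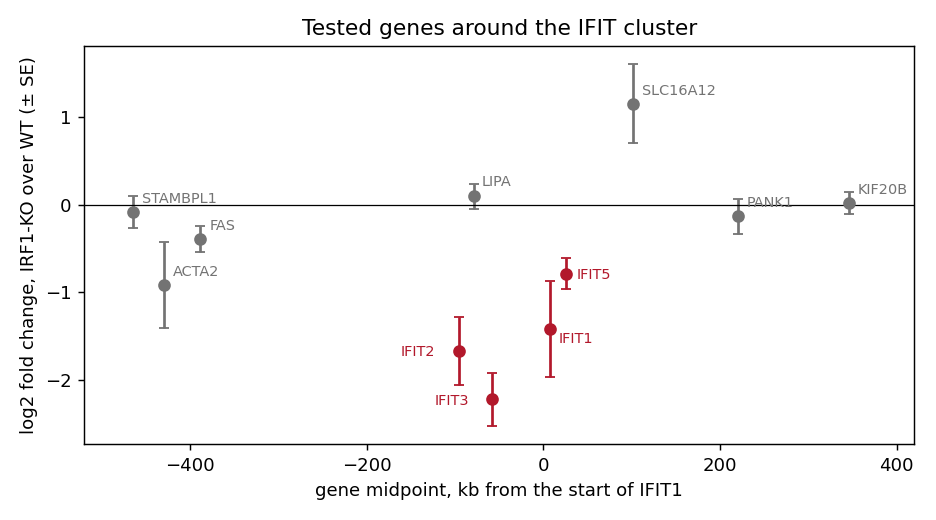
Log2 fold change (IRF1-KO over WT, bars of 1 SE) of tested genes from STAMBPL1 to KIF20B, against the distance of each gene's midpoint from the start of IFIT1. IFIT2, IFIT3, IFIT1 and IFIT5 lie between −2.22 and −0.78, and LIPA, whose span encloses most of the cluster, lies at 0.09.

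The pathway that drives IFIT genes was examined from lists of ligands, signalling components, sensors and targets. Interferon genes themselves were near the limit of detection. Of 17 type I, II and III interferon genes in the table, 1 was tested and 6 had no read in any library, and IFNB1, the fibroblast interferon, had at most 2 reads in a library. IFNE, an epithelial interferon, averaged 1.39 ± 0.568 CPM in IRF1-KO and 2.78 ± 1.47 CPM in WT (SD, n = 3 each), with overlapping groups and an edgeR adjusted p of 0.610.

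The 12 tested genes of receptors and signal carriers had a median of −0.34 (log2 fold change), and none stood past the threshold with edgeR's quasi-likelihood test. At an unadjusted p of 0.05, 6 were lower and 1 was higher, and DESeq2 called 1 lower. Over all tested genes 3.75% were lower and 5.39% higher at that p, and DESeq2 called 0.964% lower and 1.52% higher. STAT2, a signal transducer, had a log2 fold change of −0.61 ± 0.17 (SE) and IRF9, its DNA-binding partner, of −0.77 ± 0.23, with all IRF1-KO values below all WT values for both. The kinase gene TYK2 was higher in every IRF1-KO library, at 0.38 ± 0.14. Among 6 tested interferon regulatory factors the median was −0.12, none passed with edgeR, and at an unadjusted p of 0.05 IRF1 was higher and IRF2, an antagonist of IRF1, was lower at −0.45 ± 0.17. Of these DESeq2 called IRF1, as higher. IRF3 (0.19 ± 0.13) and IRF5 (−0.36 ± 0.32) overlapped between groups.

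RNA sensing genes had 1 of 11 past the threshold with edgeR, the endosomal sensor TLR3, and a median of −0.30. The cytosolic sensor IFIH1 had a log2 fold change of −1.28 ± 0.25 (SE), the kinase TBK1 −0.30 ± 0.12 and ZNFX1 −0.67 ± 0.19, and for all 3 the groups did not overlap. DESeq2 called TLR3 and IFIH1 lower. Over all tested genes 0.112% passed as lower with edgeR and 0.964% with DESeq2. Of 8 tested negative regulators none passed with edgeR and DESeq2 called USP18 lower. At an unadjusted p of 0.05 USP18 was lower (−1.23 ± 0.30) and IRF2BP1 higher (0.70 ± 0.19), beside 3.75% of all tested genes lower and 5.39% higher. Over the 15 alternatives the log2 fold change of USP18 lay between −1.53 and −1.03. That of IRF2BP1, a gene of 68.5% GC, lay between −0.0003 and 0.82, so its difference was absent in at least 1 alternative. SOCS3 had −0.32 ± 0.18 and PIAS1 −0.17 ± 0.10.

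Translation factors and cap enzymes, the machinery on whose products IFIT proteins act, had a median of 0.03 over 14 genes. None passed with edgeR or DESeq2 or at an unadjusted p of 0.05. CMTR1, which adds the ribose methylation that IFIT1 senses, had the smallest p, with 70.5 ± 3.56 CPM in IRF1-KO and 81.4 ± 0.507 CPM in WT (SD, n = 3 each) and a log2 fold change of −0.21 ± 0.10 (SE). CMTR2 had 0.20 ± 0.13, RNMT 0.14 ± 0.12 and EIF3D −0.16 ± 0.12.

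All 35 other antiviral interferon-stimulated genes had negative log2 fold changes, with a median of −1.31, beside 53.3% of all tested genes with a negative value. Of these 35, 2 passed the threshold with edgeR's quasi-likelihood test, RTP4 and PARP14, 20 passed with DESeq2, and 25 had all IRF1-KO values below all WT values. Over all tested genes these shares in the lower direction were 0.112%, 0.964% and 6.75%. The list was chosen with earlier results of these data known. IFIT3 stood near XAF1 (−2.22) and CMPK2 (−2.20), IFIT2 near IFI27 (−1.72) and IFI6 (−1.61), and IFIT5 near SAMD9 (−0.83). The widest difference in this list was that of RSAD2, which encodes viperin, at −3.61 with an edgeR adjusted p of 0.134. SAMD9L (−2.07) and TRIM22 (−3.02) had adjusted p of 0.0663 and 0.0695 in the same edgeR fit. The smallest was that of IFITM2 at −0.32, and ISG15, the ubiquitin-like modifier, had −0.54 with overlapping groups. RefSeq promoters were matched for 30 of the 35, and 23 of these held a response element core.

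Over all tested genes with a matched promoter, the 45 with at least 2 cores, IFIT1, IFIT3 and IFIT5 among them, had a median log2 fold change of −0.52. Of these 45, 37.8% had all IRF1-KO values below all WT values. Among 405 genes with 1 core the median was −0.08 and that share was 15.1%, and among 10407 genes with none they were −0.01 and 6.19%. The edgeR threshold was passed in the lower direction by 1, 8 and 2 genes of these 3 sets, or 2.22%, 1.98% and 0.0192%. A match describes the letters of the window and not binding.

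**Figure D5:**
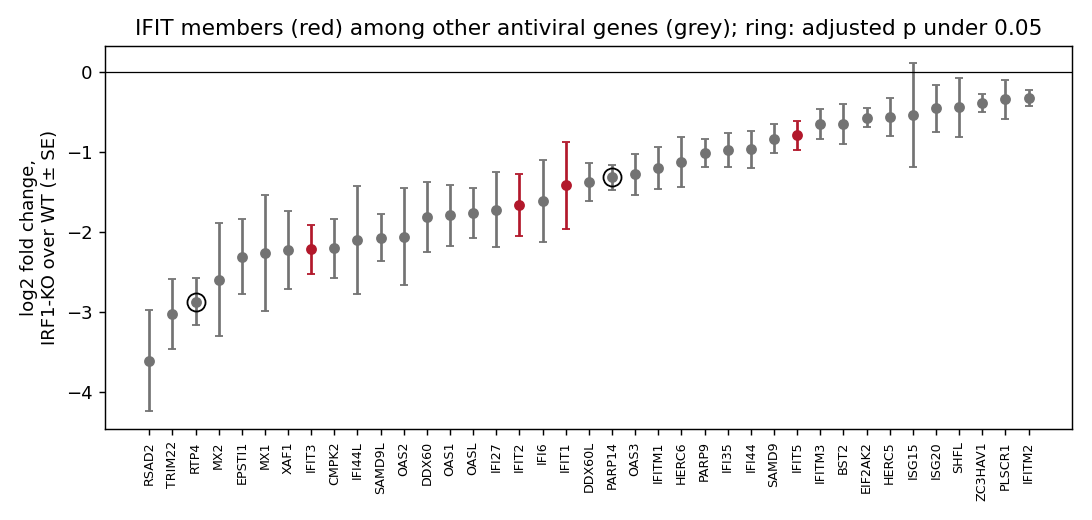
Log2 fold change (IRF1-KO over WT, bars of 1 SE) of the 4 tested IFIT genes in red and 35 other antiviral interferon-stimulated genes in grey, ordered by value, with a ring around genes past an edgeR adjusted p of 0.05. Every value is negative, from −3.61 for RSAD2 to −0.32 for IFITM2, and rings mark RTP4 and PARP14.

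Profiles over the 6 libraries were compared with those of 12090 other genes by the root mean square difference of centred log2 CPM, in which smaller is more alike. Nearest to IFIT1 were the interferon-induced gene IFI6 (0.197), CP, which encodes ceruloplasmin (0.291), and the cytochrome gene CYP4F11 (0.322), with IFIT2 at rank 4 (0.361). Nearest to IFIT2 were OAS1 (0.0947), SECTM1 (0.194) and OASL (0.242), of which OAS1 and OASL belong to the oligoadenylate synthetase family. IFIT3 lay nearest to SAMD9L (0.197), EPSTI1 (0.272) and DDX60 (0.283), with IFIT2 at rank 8. The profile of IFIT5 was nearest to IFITM3 (0.114), PML (0.122) and IRF9 (0.131), all with smaller differences between groups than the other IFIT genes had. From IFIT5 the other members ranked 7302 (IFIT2), 9619 (IFIT1) and 11047 (IFIT3), farther than the median gene. In the other direction IFIT5 ranked 60 from IFIT1, 69 from IFIT2 and 92 from IFIT3, far nearer than the median gene. IFIT3 ranked 54 from IFIT1 and IFIT1 ranked 50 from IFIT3. The measure keeps the size of a change, so the smaller difference of IFIT5 enters these ranks. In each library the deviations of IFIT1, IFIT2, IFIT3 and IFIT5 from their group means had the same sign. The median difference to all genes was 0.984 for IFIT1, 0.949 for IFIT2, 1.17 for IFIT3 and 0.480 for IFIT5. No IFIT gene had another member among its 3 nearest profiles. OAS1, the gene most like IFIT2, averaged 28.0 ± 6.07 CPM in IRF1-KO and 97.1 ± 44.8 CPM in WT (SD, n = 3 each). Ranks over 6 libraries describe these libraries only.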

How the data were processed

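Poly(A)-selected RNA of 6 CFPAC1 libraries was sequenced. The deposited values are whole-number counts per gene in the featureCounts layout, per the file headers, and exon lengths come from the same table. FeatureCounts 0.6.1, edgeR 3.2.2 and GRCh38 (hg38) are named in the submitters' processing notes. The aligner, annotation and strand setting were not given in the sources used here.

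Members and lists were chosen with earlier results of these data known. Symbols came from a table of current names for 19342 gene identifiers and from GENCODE 29 for 56. Differences were tested with edgeR 4.0.16 under R 4.3.3 (filterByExpr, TMM, robust dispersion, glmQLFit, glmQLFTest, two-sided, Benjamini-Hochberg over all tested genes, threshold 0.05). The standard error of a log2 fold change is implied by the F statistic. Ratios were tested by exact permutation (scipy 1.17.1). Named were the members, IRF1, flanking genes, up to 4 genes with the smallest p per list and the 3 nearest profiles per member. Antiviral genes beside members in rank or at the ends were named after their values were seen, as were marker genes and IFNB1. Values of 1 gene that the rule names are not reported here.

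As alternatives, RLE or upper-quartile scaling, omission of the low-count filter, a stricter one (5 CPM in 3 libraries), DESeq2 1.42.0, limma-voom (limma 3.58.1), the replicate number as a block, a spline correction for transcript GC content and leaving out each library were tried. In simulated counts of this comparison over 13271 genes edgeR recovered 24% of 50 genes changed 1.5-fold, 74% of 50 changed 2-fold and 100% of 50 changed 4-fold, with 8 false calls. Each simulated gene had the spread of the trend for its level. In the edgeR fit that trend was 0.162 for IFIT1, 0.181 for IFIT2 and 0.164 for IFIT3. Their own coefficients of variation were larger, at 0.449, 0.330 and 0.257, so the recovered shares do not apply to these 3 members. Within groups, libraries differed by chi-square values of 25.8 to 55.0 per degree of freedom, so none was treated as a duplicate. Of the leukocyte markers 4 of 8 were tested, and of the endothelial and fibroblast markers 3 of 8. None of those tested passed the threshold with edgeR or DESeq2. Of the 8 acinar and islet markers 0 were tested, so that list could give no call.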

Additional observations from a re-analysis of the deposited data

How the results depend on the processing

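IFIT1, IFIT2, IFIT3 and IFIT5 kept a negative log2 fold change in all 15 alternatives. IFIT1 stayed short of the threshold in each. With DESeq2, IFIT3 (−2.22), IFIT2 (−1.66) and IFIT5 (−0.78) passed it, so that 3 members were lower, beside 129 lower and 203 higher genes in all, against 15 and 2 with edgeR. Same-numbered libraries were not shown to be pairs: their deviations from the group means correlated at −0.02, 0.25 and 0.06 for replicates 1, 2 and 3, and IRF1-KO replicate 1 correlated best with WT replicate 3. With the replicate number as a block, IFIT3 (−2.19, edgeR adjusted p = 0.0450) was the 1 member past the threshold, beside 27 lower and 4 higher genes. No filter on low counts gave 26 lower and 5 higher genes, and the stricter filter gave 4 higher genes. The GC correction in edgeR gave 0 higher genes, with 552 at an unadjusted p under 0.05 in that direction, and 1 higher gene when joined with the replicate block. The 203 higher genes of DESeq2 were called without a GC correction. The cause of these differences was not tested. Leaving out single libraries moved IFIT3 between −2.46 and −2.05, the number of lower members between 0 and 1, and the numbers of lower and higher genes between 3 and 36 and between 0 and 55. The low of 3 came without IRF1-KO replicate 1 or 3, and the highs of 36 and 55 without WT replicate 3, while 5 lower genes were called without WT replicate 2. Adjusted p over the alternatives ranged from 7.90e-12 to 0.385 for IFIT3, 0.000433 to 0.576 for IFIT2, 0.00867 to 0.553 for IFIT5 and 0.228 to 0.849 for IFIT1. The log2 ratios of IFIT1, IFIT2 and IFIT5 to IFIT3 and of IFIT1 to IFIT2 kept their sign with 1 count added and without any 1 library. The difference for IFIT1 to IFIT2, 0.29, was 0.12, 0.18 and 0.58 without WT replicates 1, 2 and 3, and 0.44 and 0.16 without IRF1-KO replicates 1 and 2, and that for IFIT1 to IFIT3 lay between 0.61 and 1.15. No fold change of IFIT1B is given, since its reads numbered 0 in IRF1-KO and 1 in WT. Depth did not limit the other members, whose lowest count was 260.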
